A study of Mus musculus with 10 samples.

Results

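Replication-dependent histones are the proteins that package newly copied DNA, and their genes were followed here in the outflow vein of mouse arteriovenous fistulas. The members were the protein-coding genes of the deposited table whose names mark one of the clustered H1, H2A, H2B, H3 or H4 genes, which gave 68 of 43346 genes. There were 6 H1, 19 H2A, 18 H2B, 12 H3 and 13 H4 genes. Both groups were C57 mice carrying a knock-in of human CX3CR1, a chemokine receptor, and all had chronic kidney disease, induced 28 days before the carotid artery was joined to the jugular vein. The antibody group was given 30 mg/kg antibody by intraperitoneal injection, with 2 doses each week, and the vehicle group a matching volume of vehicle. Outflow veins were collected on day 7, and each group has 5 libraries. Whether the antibody was against the receptor, as the treatment label has it, or against its ligand fractalkine, as the series title has it, is not clear from the labels. They name no promoter or cell type that drives the knock-in, and do not state that each library is a separate animal, so p-values measure the spread between libraries, part of which may be technical.

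The core histones H2A, H2B, H3 and H4 form the octamer around which DNA is wound, and the linker histone H1 sits where DNA enters and leaves it. Cells make these proteins mainly during S phase, when DNA is copied. Their messenger RNAs carry no introns as a rule and end in a conserved stem-loop instead of a poly(A) tail. The stem-loop-binding protein (Slbp) takes hold of it for processing, translation and decay. After a vein is joined to an artery its wall thickens, in part through cell division. In bulk tissue, fewer cells in S phase and less RNA per cell cannot be told apart.

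The stem-loop is shown first because it is the shared mark of these messages. In GENCODE M21 transcripts, 66 of the 68 members were found by gene ID. Among these, Hist1h2al is a processed pseudogene there, and the ID listed as Hist2h2bb, an H2B gene averaging 32.5 RPKM in these veins, is a lincRNA named Gm42743. A 16-base stem-loop, written as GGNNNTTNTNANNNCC with its first 6 bases complementary to its last 6, was present in 44 of them, 4 of 6 H1, 11 of 19 H2A, 8 of 16 H2B, 9 of 12 H3 and 12 of 13 H4 genes. Among 21837 other protein-coding genes, 25 (0.114%) had it. Of the 22 members without a match, 16 have a length in the deposited table that is a multiple of 3. Models of that kind may stop at the coding sequence, so no match says only that these letters are not in the model. The sequences of GENCODE M21 (GRCm38, the assembly called mm10) are given 5′ to 3′ on the gene's own strand, with the 16 bases in capitals.
Hist1h4d: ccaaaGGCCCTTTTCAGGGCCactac
Hist1h1e: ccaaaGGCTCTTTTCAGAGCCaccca
Hist2h2ac: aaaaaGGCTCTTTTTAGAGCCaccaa
Hist1h3g: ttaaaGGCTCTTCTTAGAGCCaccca
Hist1h4i: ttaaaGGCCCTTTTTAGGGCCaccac
Hist1h2bf: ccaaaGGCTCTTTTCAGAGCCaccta
The form of Hist1h1e and Hist1h2bf, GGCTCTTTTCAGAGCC, was found in 24 members, and the form of Hist1h4d, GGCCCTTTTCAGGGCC, in 7 members. Each of those 7 was an H4 gene. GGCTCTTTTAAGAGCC was found in 6 members, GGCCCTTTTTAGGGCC and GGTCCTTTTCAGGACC in 2 each, and 3 further spellings in 1 member each.

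Promoters are shown because their letters differ between the types. RefSeq promoters (GRCm38.p6) were matched for 62 members by gene ID, name or position, and each start had to lie near the member. Strand was checked for the members found in GENCODE M21. The 250 bases before the start were searched on both strands. CCAAT, the letters bound by the factor NF-Y, was in 6 of 6 H1, 18 of 18 H2A, 16 of 16 H2B, 8 of 10 H3 and 3 of 12 H4 windows, against 34.5% of 27025 promoters. ATTTGCAT, the octamer read by POU factors such as Oct-1 (Pou2f1), was in 7 of 18 H2A and 6 of 16 H2B windows, against 1.61% of promoters. No H1, H3 or H4 window held it. AAACACA, known as the H1 box, was in 5 of 6 H1, 2 of 18 H2A and 2 of 16 H2B windows, against 6.22% of promoters. TATAAA was in 4 of 6 H1, 7 of 18 H2A, 8 of 16 H2B, 4 of 10 H3 and 6 of 12 H4 windows, against 13.0%. H2A and H2B genes often lie head to head, 175 to 305 bp apart in 12 pairs of GENCODE M21 genes, so that both members of a pair can be counted from much the same bases. One promoter is given for the H1 gene, the H2A gene and the H4 gene that recur below, with these motifs or their reverse complements in capitals.
Hist1h1e, chr13:23622559-23622808, minus strand: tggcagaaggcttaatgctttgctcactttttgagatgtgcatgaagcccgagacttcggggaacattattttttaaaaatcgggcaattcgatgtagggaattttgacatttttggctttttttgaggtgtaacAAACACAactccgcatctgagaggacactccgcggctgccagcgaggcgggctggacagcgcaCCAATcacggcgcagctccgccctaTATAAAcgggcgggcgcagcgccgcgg
Hist1h2ac, chr13:23683960-23684209, minus strand: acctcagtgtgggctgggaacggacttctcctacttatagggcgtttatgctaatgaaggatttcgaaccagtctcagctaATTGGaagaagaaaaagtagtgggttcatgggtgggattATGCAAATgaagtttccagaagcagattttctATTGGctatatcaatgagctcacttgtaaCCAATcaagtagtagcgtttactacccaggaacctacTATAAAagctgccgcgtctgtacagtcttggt
Hist1h4d, chr13:23581318-23581567, plus strand: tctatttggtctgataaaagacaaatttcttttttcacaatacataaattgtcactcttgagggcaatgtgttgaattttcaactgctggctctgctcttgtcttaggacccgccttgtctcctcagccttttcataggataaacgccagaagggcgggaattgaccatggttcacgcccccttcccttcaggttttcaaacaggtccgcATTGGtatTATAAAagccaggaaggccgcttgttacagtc
The Hist1h2ac window reaches the start of Hist1h2bc on the other strand, 250 bp away in GENCODE M21. A match is a description of letters, and binding was not measured.

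Depth differed widely between libraries and set the precision of the low members. The antibody libraries 1 to 5 held 8280733, 20168623, 4282872, 20245837 and 12467973 reads, and the vehicle libraries 1 to 5 held 18794114, 20916617, 24156578, 34271554 and 10648088. Antibody library 3, the shallowest, recurs below as the library of highest histone level. The 68 members took 9255 to 42800 reads per library. Their share of all reads was 0.147, 0.116, 0.216, 0.0897 and 0.0834% in antibody libraries 1 to 5, against 0.107, 0.148, 0.177, 0.104 and 0.128% in vehicle libraries 1 to 5. The lowest and the highest share were both in the antibody group. Levels below are RPKM, reads per length of gene and per size of library, rescaled between libraries by trimmed means with factors of 0.841 to 1.13. The labelled tissue was checked against its markers. Vessel wall genes were strongly present. Acta2, the actin of smooth muscle, averaged 189 ± 69.3 RPKM in the antibody group and 211 ± 33.8 RPKM in the vehicle group (SD, n = 5 each). Skeletal muscle genes were present too, and their list stood at a median of 2.51 log2 units over its own mean in vehicle library 4, 1.81 in vehicle library 5 and 1.58 in antibody library 5.

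The histone genes were well expressed as a class. Their median level over the 10 libraries was 16.3 RPKM, against 4.64 RPKM for the 14658 protein-coding genes tested, and 52 of 68 members lay above that median. By type the median was 94.0 RPKM for H1, 8.15 for H2A, 15.1 for H2B, 21.7 for H3 and 28.2 for H4 genes. The share held by the leading gene differed by type. Hist1h4d averaged 202 RPKM and gave 37.7% of the summed H4 level, and Hist1h1e averaged 192 RPKM and gave 32.7% of H1. The leading H2A gene, Hist1h2ak, averaged 71.4 RPKM and gave 23.1% of its type. The leading H2B gene, Hist1h2bc, averaged 56.4 RPKM and 17.0%, and the leading H3 gene, Hist1h3b, 37.9 RPKM and 16.9%.

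**Figure D1:**
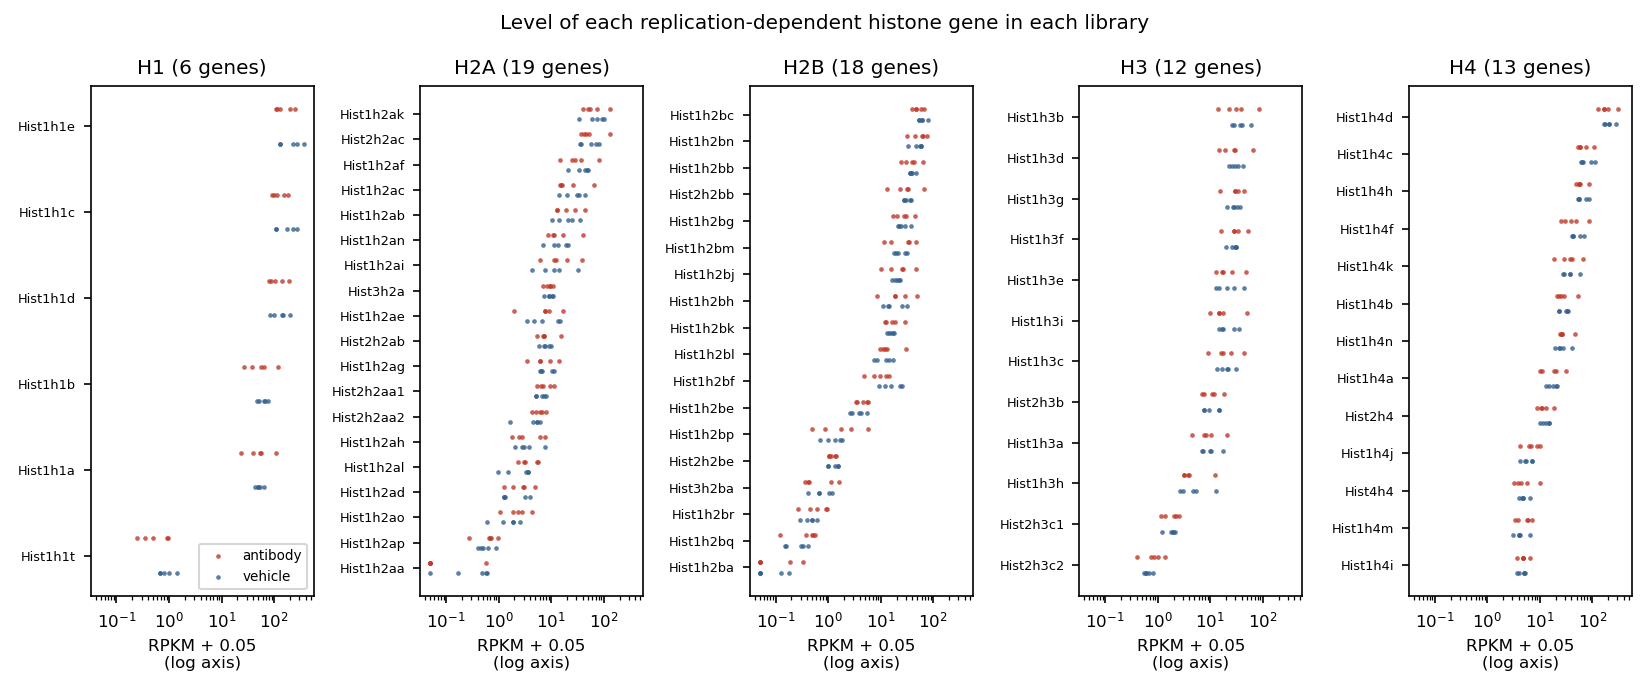
Level of each of the 68 histone genes in each library, by type, in RPKM plus 0.05 on a log axis. Red points are antibody libraries and blue points vehicle libraries, with genes sorted by their mean. The antibody and vehicle points of a gene overlap in every row, and levels run from under 1 RPKM for Hist1h2ba to over 100 RPKM for Hist1h4d and Hist1h1e.

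The genes lie mostly in clusters. Chromosome 13 held 55 members with a median level of 21.9 RPKM, and chromosome 3 held 10 members with a median of 7.68 RPKM. Chromosome 11 held 2 members and chromosome 6 held 1 member. Hist3h2a on chromosome 11 averaged 9.14 RPKM, and Hist4h4 on chromosome 6 averaged 5.16 RPKM. The members known from testis were at or near the limit of detection. Hist1h2ba had 1, 0, 0, 1 and 0 reads in antibody libraries 1 to 5 and 1, 0, 0, 1 and 0 reads in vehicle libraries 1 to 5. A count of 0 allows up to 3 reads, which is 0.149 CPM in antibody library 2 and 0.700 CPM in antibody library 3. Hist1h2aa had 0, 0, 0, 4 and 0 reads in antibody libraries and 4, 1, 5, 6 and 0 reads in vehicle libraries. These members, with Hist1h2ap and Hist3h2ba, had too few reads to be tested, which left 64. The testis linker histone Hist1h1t had enough reads. It averaged 0.541 ± 0.329 RPKM with antibody and 0.858 ± 0.303 RPKM with vehicle (SD, n = 5 each).

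The comparison of antibody with vehicle asks whether histone messages in the vein differ after treatment. None of the 64 tested members passed an adjusted p of 0.05 in limma, and of all 17859 genes tested 0 (0.0%) passed. At an unadjusted p under 0.05, 1 of 64 members passed, against 6.53% of all genes (3.55% higher and 2.98% lower in antibody libraries). No member had groups that did not overlap, against 1.11% of all genes. The members divided evenly, with 32 higher and 32 lower in antibody libraries, a median log2 difference of -0.0041 and a range of -0.78 to 0.57. Over all genes 48.8% were higher, with a median of -0.0053. The 95% interval of the difference spanned 0 for 63 of 64 members. Scaling by library totals, which moves the median of all genes to 0.063, puts 42 of 64 members above 0, and so does scaling by protein-coding totals.

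**Figure D2:**
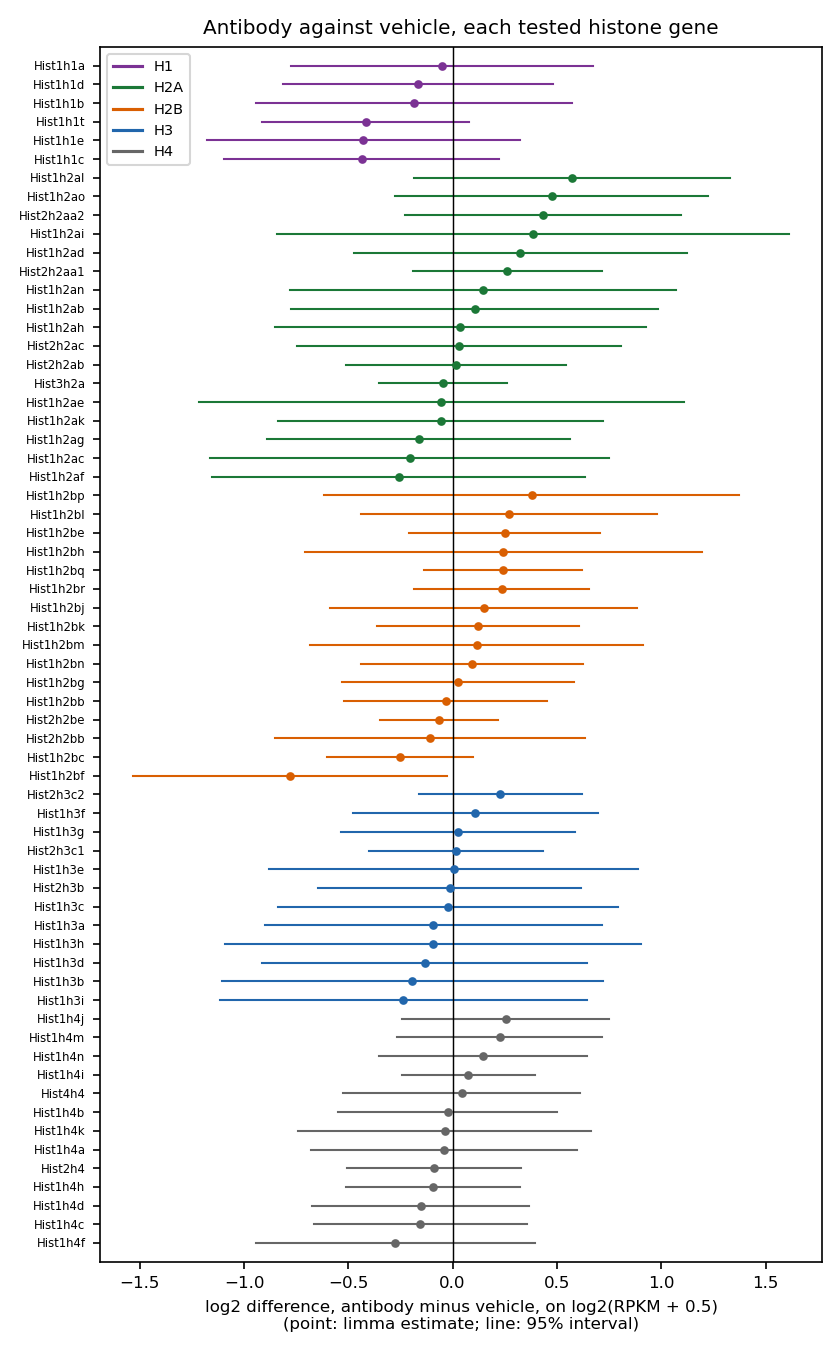
Fitted log2 difference of each of the 64 tested histone genes, antibody minus vehicle, with its 95% interval from limma, coloured and grouped by type. The interval of Hist1h2bf at the foot of the H2B block is the one that leaves out 0, and the 6 H1 genes lie left of 0 with intervals that span it.

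The linker histones had differences of 1 sign. All 6 H1 genes had a lower mean log2 level in antibody libraries, with a median difference of -0.30, and 0 of 6 passed the test. The median was -0.22 when scaled by library totals and -0.23 when scaled by protein-coding totals, with 5 of 6 lower under each, as Hist1h1a then lay just above 0. It was -0.51 without antibody library 3, -0.17 without vehicle library 3 and -0.18 without antibody library 5, where 4 of 6 were lower. Without antibody library 4, and likewise without vehicle library 5, 5 of 6 were lower. The summed H1 level was 618, 442, 845, 364 and 360 RPKM in antibody libraries 1 to 5, against 411, 667, 956, 438 and 775 RPKM in vehicle libraries 1 to 5. The groups overlapped, and their means were 526 ± 207 RPKM with antibody and 649 ± 230 RPKM with vehicle (SD, n = 5 each). Hist1h1e, a linker histone made in most cell types, had 204, 131, 246, 110 and 116 RPKM in antibody libraries and 128, 223, 363, 131 and 272 RPKM in vehicle libraries. Its log2 difference was -0.43 with a standard error of 0.34 (limma adjusted p = 0.791). Hist1h1c, another widely made linker histone, had 151, 99.1, 180, 90.5 and 114 RPKM in antibody libraries and 108, 176, 270, 108 and 229 RPKM in vehicle libraries. Its log2 difference was -0.44 with a standard error of 0.30 (limma adjusted p = 0.771). In both genes vehicle libraries 3 and 5 were the high ones and vehicle libraries 1 and 4 lay among the antibody values. Hist1h1a and Hist1h1b, which in mice are linked to dividing tissues, had log2 differences of -0.052 and -0.18.

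Set against the core histones, H1 was 0.380 ± 0.063 of their summed level in antibody and 0.455 ± 0.084 in vehicle libraries (SD, n = 5 each). The ratio was 0.470, 0.332, 0.346, 0.331 and 0.422 in antibody libraries 1 to 5 and 0.352, 0.447, 0.530, 0.396 and 0.548 in vehicle libraries 1 to 5, so the groups overlapped. The makeup of H1 also varied between libraries. The summed level of Hist1h1a and Hist1h1b was 0.338, 0.476, 0.530, 0.387 and 0.215 of that of Hist1h1c and Hist1h1e in antibody libraries 1 to 5, and 0.382, 0.294, 0.198, 0.423 and 0.264 in vehicle libraries 1 to 5. Antibody library 3 and vehicle library 3, which had the highest histone totals of their groups, were at opposite ends of this ratio. H1f0, the replacement linker histone made outside S phase and no member of the class, had 41.9, 42.7, 44.8, 36.7 and 40.5 RPKM in antibody libraries and 45.2, 57.6, 72.0, 45.9 and 51.3 RPKM in vehicle libraries. These groups did not overlap, which held for 1 of 12 tested replication-independent histones and 1.11% of all genes. H1f0 had the smallest p of those 12. Its log2 difference of -0.37 with a standard error of 0.13 did not pass (limma unadjusted p = 0.0173, adjusted p = 0.739).

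The H2A genes, which with H2B form the outer dimers of the octamer, had differences on both sides of 0. Of 17 tested, 11 were higher and 6 lower, with a median log2 difference of 0.037, and 0 passed the test. Without antibody library 3, 6 of 17 were higher, with a median of -0.21, and without antibody library 5, 16 of 17, with a median of 0.27. The summed level was 230, 314, 620, 248 and 172 RPKM in antibody libraries 1 to 5 and 234, 383, 414, 175 and 301 RPKM in vehicle libraries 1 to 5. Antibody library 3 stood above each of the others and antibody library 5 below them. Hist2h2ac, the second H2A gene by level, had 42.8, 51.7, 129, 45.6 and 37.3 RPKM in antibody libraries and 36.9, 80.7, 70.5, 35.8 and 58.3 RPKM in vehicle libraries. Its log2 difference was 0.029 with a standard error of 0.35 (limma adjusted p = 0.986), and it was -0.28 without antibody library 3.

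Among H2A genes the differences of smallest p were Hist1h2al at 0.57, Hist2h2aa2 at 0.43 and Hist1h2ao at 0.47 on the log2 scale, with standard errors of 0.34, 0.30 and 0.34. Hist2h2aa2 had 6.57, 5.97, 4.20, 7.98 and 5.02 RPKM in antibody libraries and 6.02, 4.37, 1.57, 5.37 and 5.32 RPKM in vehicle libraries. In each of these genes vehicle library 3 was lowest, although it was high for most other members. Every 50-base word of Hist2h2aa2, and every one of Hist2h2aa1, also occurs in at least 1 other gene, and GENCODE M21 gives the symbols of these 2 gene IDs the other way round, so how reads were divided between them is uncertain. Their sum was 13.7, 11.2, 15.6, 17.6 and 11.5 RPKM in antibody and 11.1, 12.4, 6.70, 12.7 and 11.9 RPKM in vehicle libraries. Hist1h2ao and Hist1h2al share 93.5% and 67.6% of their 50-base words with other genes. Hist1h2ao had 5 to 30 reads per library, and Hist1h2al is a processed pseudogene in GENCODE M21.

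Hist1h2bf was the member of smallest p. This H2B gene is a single block of 461 bp at chr13:23573736-23574196 on the minus strand. It had 12.8, 9.77, 14.1, 7.32 and 4.66 RPKM in antibody libraries 1 to 5 and 23.7, 9.18, 15.5, 25.3 and 11.8 RPKM in vehicle libraries 1 to 5. Behind these stood 27 to 94 reads in antibody and 49 to 407 reads in vehicle libraries. Vehicle libraries 1 and 4 were high, and vehicle library 2 lay below 3 of the 5 antibody libraries. The log2 difference was -0.78 with a standard error of 0.34 and a 95% interval of -1.53 to -0.025. The unadjusted p of limma was 0.044, the adjusted p 0.739 and the exact two-sided permutation p 0.0873, where 0.00794 is the smallest that all assignments of 5 against 5 libraries allow. The unadjusted p was above 0.05 without any one of antibody libraries 2, 4 and 5 and vehicle libraries 1, 3 and 4, where the log2 difference ran as high as -0.56. Hist1h2bf shares 65.8% of its 50-base words with other genes, so part of its reads may belong to its relatives or theirs to it. Its head-to-head partner Hist1h2ad, 184 bp away, had a log2 difference of 0.32 with a standard error of 0.36 (limma adjusted p = 0.841).

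The summed level of the H2B genes varied little among the vehicle libraries. Single genes varied more, as Hist1h2bf did at 9.18 to 25.3 RPKM. Of 16 H2B genes tested, 11 were higher and 5 lower in antibody libraries, with a median log2 difference of 0.12, and 0 passed the test. Without antibody library 3, 4 of 16 were higher, with a median of -0.083, and without antibody library 5, 13 of 16, with a median of 0.31. The summed level was 348, 337, 545, 256 and 206 RPKM in antibody libraries 1 to 5 and 305, 348, 346, 319 and 303 RPKM in vehicle libraries 1 to 5. The means were 339 ± 129 RPKM with antibody and 324 ± 21.8 RPKM with vehicle (SD, n = 5 each). The difference in spread was not tested. Hist1h2bn, which was second by level, had 63.7, 60.5, 74.5, 45.5 and 31.3 RPKM in antibody and 55.6, 58.9, 46.8, 57.4 and 33.6 RPKM in vehicle libraries. Hist1h2bc had 39.7, 47.6, 66.0, 46.5 and 58.5 RPKM in antibody and 54.6, 59.7, 60.6, 52.7 and 78.6 RPKM in vehicle libraries. Its log2 difference was -0.25 with a standard error of 0.16 (limma adjusted p = 0.771).

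H3 and H4 form the inner tetramer of the octamer, and no gene of either type passed the test. Of 12 tested H3 genes 5 were higher and 7 lower (median log2 difference -0.018), and of 13 H4 genes 5 were higher and 8 lower (median -0.039). Scaled by library totals, the medians were 0.064 for H3 and 0.046 for H4. Without antibody library 3, 2 of 12 H3 genes were higher (median -0.30) and 3 of 13 H4 genes (median -0.24). Without antibody library 5, 10 of 12 H3 genes were higher (median 0.14) and 8 of 13 H4 genes (median 0.084). Summed H3 was 204, 212, 444, 170 and 114 RPKM in antibody libraries 1 to 5 and 175, 239, 300, 167 and 226 RPKM in vehicle libraries 1 to 5. Summed H4 was 533, 468, 833, 425 and 361 RPKM in antibody libraries 1 to 5 and 453, 523, 741, 446 and 584 RPKM in vehicle libraries 1 to 5. Library 3 was the highest of its group in both types. Hist1h4d, the most abundant member, had 200, 168, 310, 165 and 128 RPKM in antibody and 176, 211, 284, 169 and 211 RPKM in vehicle libraries. Its antibody to vehicle ratio from the fit was 0.899 with a 95% interval of 0.627 to 1.29 (limma adjusted p = 0.883). Hist1h3b, the leading H3 gene, had 30.4, 38.5, 84.0, 23.0 and 14.0 RPKM in antibody and 28.4, 40.4, 58.2, 25.9 and 36.5 RPKM in vehicle libraries, a 6.01-fold range over the 10 libraries.

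**Figure D3:**
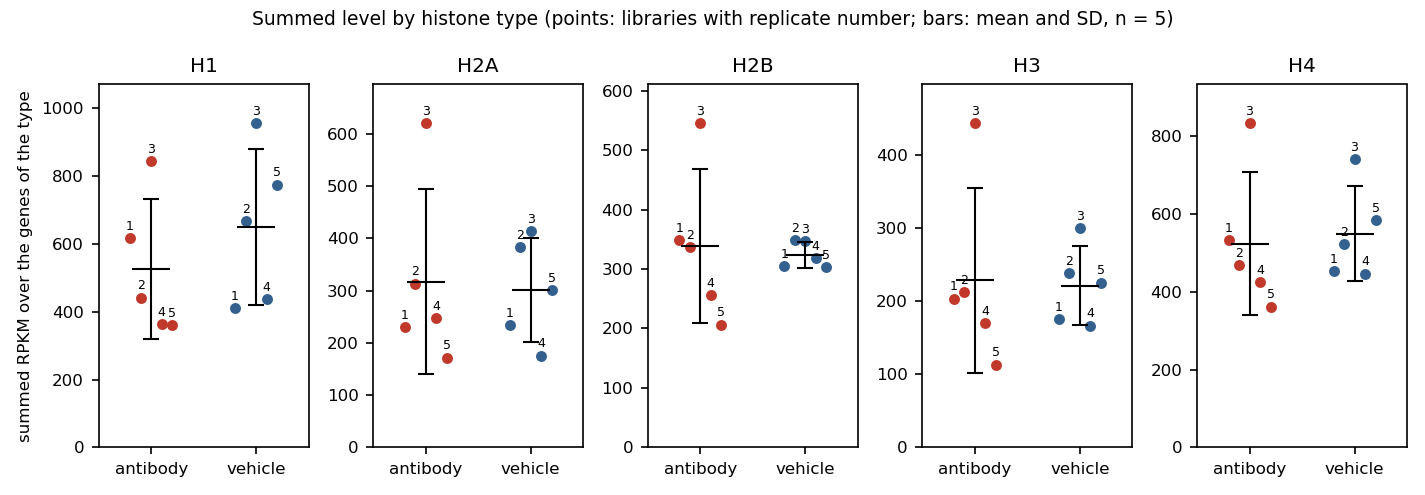
Summed RPKM of the genes of each histone type in each library, antibody left and vehicle right, with replicate numbers beside the points and bars for the mean and SD (n = 5). Antibody library 3 is the highest point for H2A, H2B, H3 and H4, and vehicle library 3 for H1.

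The main pattern in the class lay between libraries within groups. Over the 64 tested members the median SD of the log2 level across the 10 libraries was 0.54, against 0.23 for all genes tested. The members' median was above that of 88.0% of genes. These genes were not matched to the members by level. The median level was 16.3 RPKM over the 68 members and 4.64 RPKM over the tested protein-coding genes. Adding 0.5 RPKM before taking logs damps the spread of low genes, and the part of level in the spread was not tested. Antibody library 3 was the highest of the 10 libraries for 46 of 64 members, with a median of 0.87 log2 units over each gene's own mean. Antibody library 5 was the lowest for 37 members, at a median of -0.61. Vehicle library 3 came second, at 0.34, and the other libraries lay between -0.25 and 0.12. Both ends of the range were thus in the antibody group. Without antibody library 3, 15 of 64 members were higher in antibody libraries, with a median log2 difference of -0.22. Without antibody library 5, 49 of 64 were higher, with a median of 0.18.

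Without antibody library 3, 5 members were below an unadjusted p of 0.05, with 6.08% of all genes there, and these 5 were lower in antibody libraries. They were Hist1h2bf at -0.93, Hist1h3i at -0.60, Hist1h1t at -0.54, Hist1h4f at -0.53 and Hist1h2bc at -0.34 on the log2 scale, each with a limma adjusted p of 0.758. Without antibody library 5, 3 members were below it, with 8.40% of all genes there, and these 3 were higher, led by Hist1h4j at 0.42. The sign of the class median thus turned with which of these libraries was left out.

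**Figure D4:**
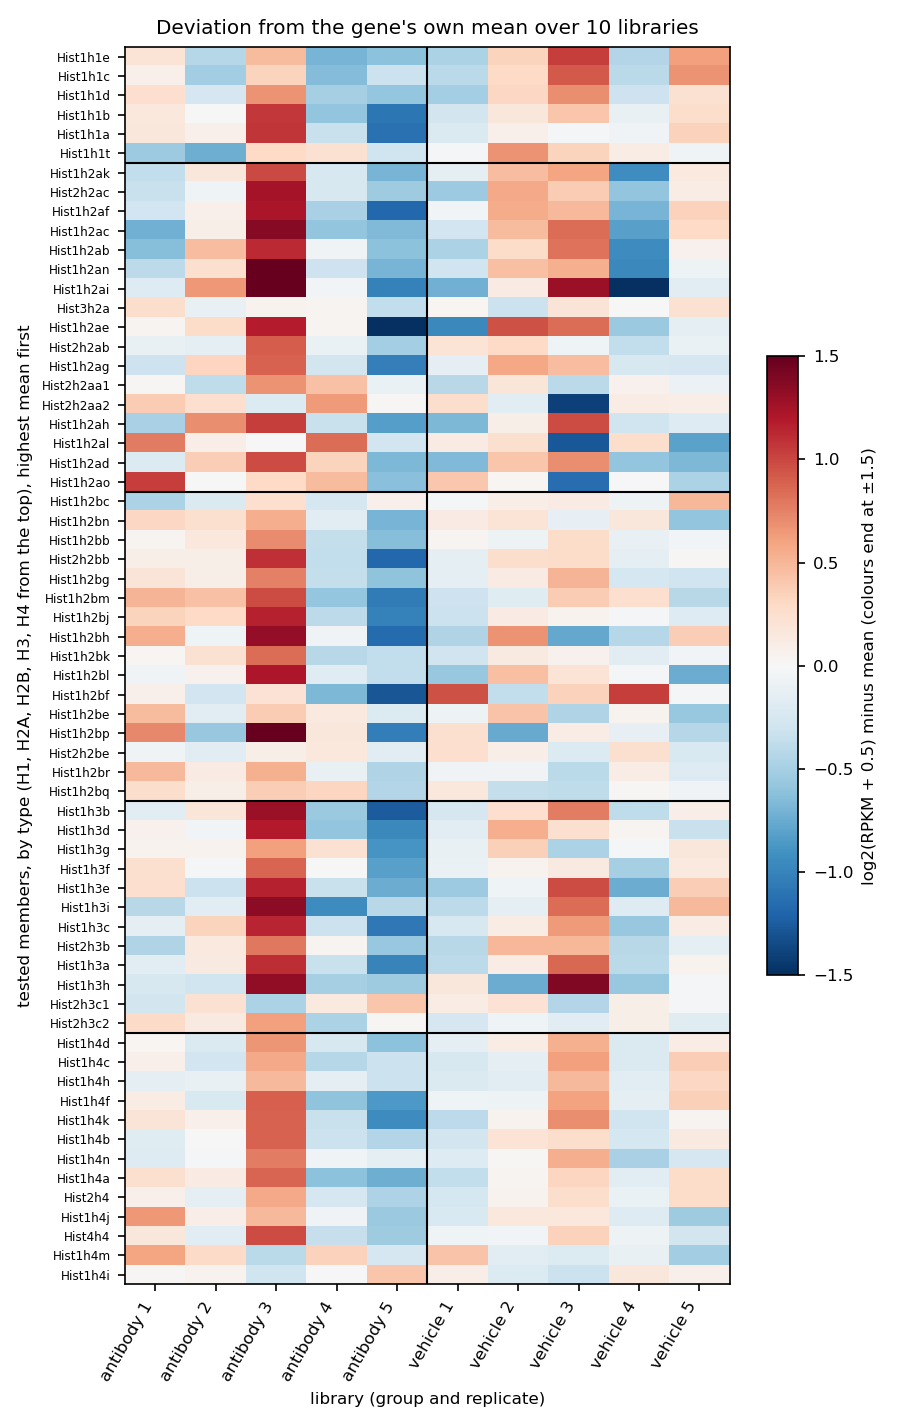
Log2 level of each tested histone gene minus its own mean over the 10 libraries, antibody libraries left of the vertical line and vehicle libraries right of it, with types separated by horizontal lines. The column of antibody library 3 is red for nearly all rows and that of antibody library 5 blue, with a median of 0.87 and -0.61.

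The members did not all take part in this pattern. Hist2h2be, Hist3h2a, Hist1h4i and Hist1h2bc were the steadiest, with SDs of 0.19, 0.21, 0.22 and 0.28 log2 units. Hist1h2ai and Hist1h2ae were the most variable, at 0.97 and 0.89. These genes were singled out after their values were seen. Hist1h4i had 4.71, 4.81, 3.69, 4.65 and 6.35 RPKM in antibody and 4.99, 3.97, 3.61, 5.28 and 4.91 RPKM in vehicle libraries, so that antibody library 3 was low and antibody library 5 highest, the reverse of the class. The Hist1h4i value in antibody library 3 rests on 12 reads, and vehicle library 3 was slightly lower. Hist2h3c1, an H3 gene, was lowest in antibody library 3, at 1.11 RPKM from 9 reads. Vehicle library 3 was close to it, at 1.15 RPKM from 48 reads. All sequence words of Hist2h3c1 are shared with other genes, and the gene overlaps another one. Counting error in antibody library 3 therefore limits what Hist1h4i and Hist2h3c1 show. Hist1h2ac ranged over 14.8 to 64.3 RPKM in antibody and 13.8 to 44.5 RPKM in vehicle libraries. Hist1h2bc, across the same promoter, ranged over 39.7 to 66.0 RPKM in antibody and 52.7 to 78.6 RPKM in vehicle libraries. Their ratio was 0.374, 0.554, 0.975, 0.349 and 0.263 in antibody libraries 1 to 5 and 0.370, 0.578, 0.735, 0.262 and 0.387 in vehicle libraries 1 to 5. On chromosome 3, Hist2h2ac averaged 58.9 RPKM, from 4809 reads in all over a model of 520 bp. Its partner Hist2h2be, 238 bp away, averaged 1.19 RPKM, from 563 reads over a model of 2620 bp. RPKM divides reads by model length, and the part of that length in this gap was not tested.

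Gene models were set beside this spread. Hist3h2a and Hist1h4i have models in the file that run 1643 and 330 bases past the stem-loop. Over the 8 tested members whose file model ran at least 300 bases past it, the median SD was 0.31 log2 units, and over the 16 whose model ended sooner it was 0.55. The median level also differed, at 7.82 RPKM in the 8 and 17.2 RPKM in the 16. RPKM divides reads by the length of the model, so these levels depend on that length too. Tested members without a GENCODE M21 transcript of the deposited length that holds a stem-loop are in neither set. Of those 8, Hist1h3e had an SD of 0.68 with 369 bases and Hist1h1c one of 0.54 with 840 bases, so that both were near or above the median of the shorter models. The part of the gene model in the spread was not tested. Among members sharing at least 50% of their 50-base words with other genes (34 members), the median level was 13.5 RPKM and the median SD 0.56. Among the 32 sharing less, these were 24.5 RPKM and 0.46. In 9 members the gene overlaps another one, among them Hist3h2a with Trim17, and whether counting used strand is not stated in the sources at hand.

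Genes of the cell cycle stood with the histones in some libraries and apart from them in others. Over 30 S phase genes, the median deviation was 0.52 log2 units in antibody library 3 and -0.35 in antibody library 5, the same ends as for the histones. Over 25 genes of G2 and mitosis it was 0.58 and -0.59. Vehicle library 3, second for histones at 0.34, stood at -0.047 for S phase and -0.25 for G2 and mitosis. Mki67, a marker of cycling cells, had 24.6, 25.0, 32.4, 18.2 and 12.9 RPKM in antibody libraries and 19.1, 35.3, 15.8, 21.7 and 13.7 RPKM in vehicle libraries. In vehicle library 2, highest for Mki67, the histone median was 0.12. Between groups, 20 of 30 S phase genes were higher in antibody libraries with a median log2 difference of 0.057, and 11 of 25 genes of G2 and mitosis with a median of -0.021. Over all genes 48.8% were higher, and 6.53% had a limma unadjusted p under 0.05. None of either list had such a p, and none passed the limma test.

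**Figure D5:**
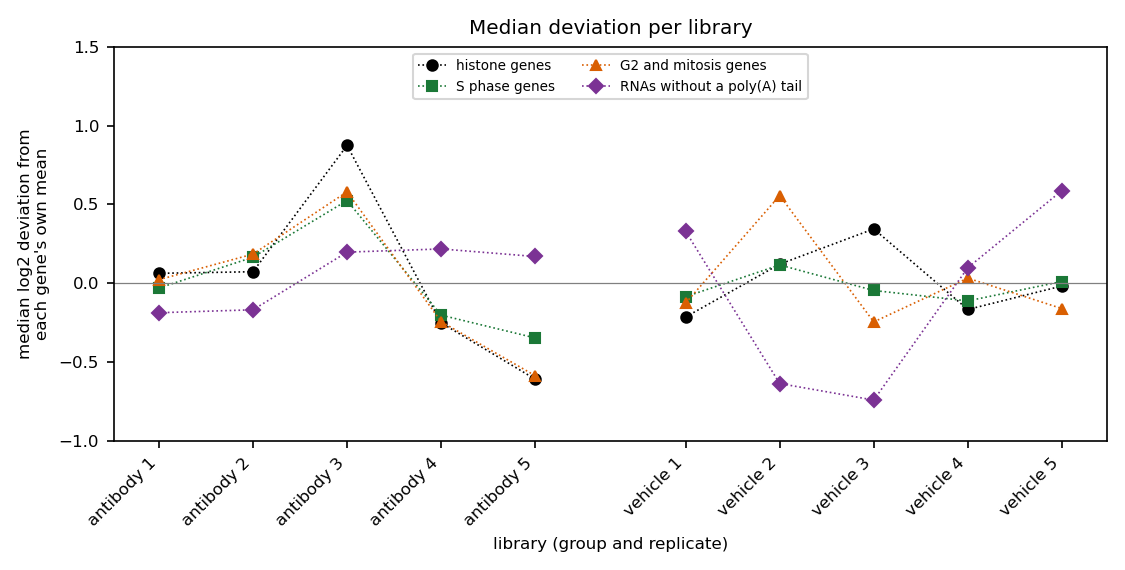
Median log2 deviation from each gene's own mean in each library, for the tested histone genes, S phase genes, genes of G2 and mitosis, and RNAs without a poly(A) tail, with antibody libraries left and vehicle libraries right. Histones, S phase and mitosis are jointly high in antibody library 3 and low in antibody library 5, and they part in vehicle library 3, where RNAs without a tail are at -0.74.

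RNAs that carry no poly(A) tail were followed as well, since how libraries select RNA bears on messages without a tail. The labels name the TruSeq V2 kit and total RNA and do not say how RNA was selected. Such RNAs were abundant, with Rn7sk, a small RNA that regulates transcription elongation, averaging 8387 ± 1127 RPKM with antibody and 11422 ± 3686 RPKM with vehicle (SD, n = 5 each). The median deviation of the 11 tested genes was -0.19, -0.17, 0.20, 0.22 and 0.17 in antibody libraries 1 to 5 and 0.33, -0.64, -0.74, 0.10 and 0.59 in vehicle libraries 1 to 5. It was thus lowest in vehicle library 3, which was high for histones, and positive in antibody libraries 3 and 5, which were at the 2 ends for histones. Its part in the histone levels was not tested.

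The genes that make and handle histone messages were called in no case. Of 23 tested genes of histone message processing, 17 (73.9%) were higher in antibody libraries, against 48.8% of all genes, with a median log2 difference of 0.087. At an unadjusted p under 0.05, 2 of the 23 passed, against 6.53% of all genes. Slbp had 4.91, 4.86, 6.11, 4.65 and 4.42 RPKM in antibody and 4.71, 4.02, 5.35, 4.31 and 4.92 RPKM in vehicle libraries, a log2 difference of 0.087 with a standard error of 0.11 (limma adjusted p = 0.854). Npat, the coactivator that sits at histone clusters, had a log2 difference of 0.10 with a standard error of 0.13. Casp8ap2 (FLASH), which helps cut the message end, had a log2 difference of 0.27 (limma unadjusted p = 0.0444, adjusted p = 0.739). Eri1, an exonuclease that trims histone messages after the stem-loop, had one of 0.22 (limma unadjusted p = 0.0366, adjusted p = 0.739).

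Of 23 histone chaperones, which carry histones to DNA, 10 were higher and 13 lower, with a median log2 difference of -0.015 and 0 called. At an unadjusted p under 0.05, 2 of the 23 passed, against 6.53% of all genes. Daxx and Atrx, partners in placing the replacement histone H3.3 outside S phase, had differences of opposite sign. Daxx had 8.44, 8.15, 8.71, 9.51 and 8.41 RPKM in antibody and 11.4, 10.8, 12.2, 8.45 and 11.9 RPKM in vehicle libraries, with vehicle library 4 among the antibody values. Its log2 difference was -0.31 with a standard error of 0.11 (limma unadjusted p = 0.0129, adjusted p = 0.739). Atrx had a log2 difference of 0.23 with a standard error of 0.091 (limma unadjusted p = 0.0277, adjusted p = 0.739). Of 12 tested replication-independent histones, 4 were higher and 8 lower, with a median of -0.11 and 0 called. H2afz, the H2A variant at promoters, and H3f3b, which encodes H3.3, had log2 differences of 0.040 and -0.095.

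Markers of other cells also varied between libraries. Of 10 tested leukocyte genes, 8 were higher in antibody libraries, with a median log2 difference of 0.60 and 0 called. At an unadjusted p under 0.05, 3 of the 10 passed, each higher, against 6.53% of all genes (smallest limma unadjusted p = 0.0128, adjusted p = 0.739). These were Cxcr2 and Csf3r, receptors of neutrophils, at 1.56 and 1.08 and Ptprc, the CD45 antigen of leukocytes, at 0.64 on the log2 scale. The median deviation of the list was 1.13 in antibody library 1, 0.47 in antibody library 3, -0.42 in antibody library 5 and -1.03 in vehicle library 2. Their summed level ran from 197 to 620 RPKM in antibody and from 233 to 356 RPKM in vehicle libraries. Of 10 skeletal muscle genes 1 was higher, with a median of -0.82 and summed levels of 400 to 4209 RPKM in antibody and 770 to 7484 RPKM in vehicle libraries. Of 10 kidney tubule genes 1 was higher, with a median of -0.11. Their summed level ran from 15.3 to 146 RPKM in antibody and from 25.1 to 99.2 RPKM in vehicle libraries. Of 16 vessel wall genes 3 were higher, with a median of -0.20. At an unadjusted p under 0.05 there were 1 skeletal muscle gene, Myh1 (lower), 0 kidney tubule genes and 2 vessel wall genes, Kdr (higher) and Smtn (lower). None of these lists had a gene called or, among its genes, one at 0 in all libraries, and their part in the histone levels was not tested.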

How the data were processed

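RNA was sequenced from the fistula outflow vein, in 5 antibody and 5 vehicle libraries grouped by title and description. Per the labels' protocols, the TruSeq V2 kit was used on 0.5 µg of total RNA. The build is mm10, per the submitters' processing notes, and the aligner, annotation release and strand setting were not given in the sources used here. The authors deposited 1 table of 43346 genes with RPKM per library, per the file headers. Coordinates are those of the table.

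In the deposited RPKM values, a gene's reads had been divided by its length plus 1 bp and by the library's summed reads. Undoing this gave whole reads for 100% of values within 0.001, so depth is known. The fewest reads were 4282872, where 3 reads are 0.700 CPM, and the most 34271554, where they are 0.0875 CPM. Such floors cover counting error only. Libraries of 1 group differed from each other by more than sampling noise (chi-square per degree of freedom at least 11.3). In 3673 genes every library was at 0.

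Libraries were scaled by trimmed means of M values over the genes kept. Genes were kept with 0.513 CPM (10 reads at median depth) in 5 libraries and 15 reads in all, which left 17859. Differences were tested on log2(scaled RPKM + 0.5) with the trended variance of limma 3.58.1 (R 4.3.3), group as the single term, two-sided and Benjamini-Hochberg adjusted over all genes kept. Fold changes on that scale understate those of low genes. Single members also had an exact two-sided permutation test over all assignments of 5 against 5 libraries. Summed levels had no test. The procedure was also run on simulated reads with the same dispersion for every gene. That run does not bear on the members, which varied more than most genes.

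Alternatives were other scalings, filters and pseudocounts, limma-voom on the recovered reads, the replicate number as a block, and each library left out. The members and gene lists were chosen with earlier results of these data known. Named members were the 4 of highest level per type, the 5 of smallest p per direction, the testis members and those of Hist3 and Hist4. Up to 4 genes per list were named by smallest p. Further genes (Hist1h1a, Hist1h2ad, Hist1h2ae, Hist1h2ai, Hist1h2ap, Hist1h3e, Hist1h3i, Hist1h4i, Hist1h4j, Hist2h2aa1, Hist2h2be, Hist2h3c1, Acta2, Mki67, Rn7sk, Slbp, Npat, H2afz, H3f3b) were chosen after their values were seen. Transcripts and stem-loops are from GENCODE M21, and promoters from RefSeq. Near-identical or overlapping genes may share reads.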

Additional observations from a re-analysis of the deposited data

Results flagged for a closer look

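In 4 of 78 groups of 5 libraries that were examined, 1 library lay far from the others, where chance marks about 1 in 20 groups. Antibody library 3 was far above the other antibody libraries for 3 members. It had 129 RPKM for Hist2h2ac with the next at 51.7 RPKM, 64.3 RPKM for Hist1h2ac with the next at 26.4 RPKM, and 87.0 RPKM for Hist1h4h with the next at 57.1 RPKM. In vehicle library 3 the same genes had 70.5, 44.5 and 86.8 RPKM. Antibody library 3 was also the shallowest, with 4282872 reads, and its median deviation was 0.52 log2 units for S phase genes. The part of either in these values was not tested. Hist1h2aa had 0.532 RPKM in antibody library 4, from 4 reads, and 0 reads in the other antibody libraries.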

How the results depend on the processing

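No member was called under the main settings or any alternative, and the smallest adjusted p of a named member was 0.556 (Hist1h2bq, without antibody library 5). Without a filter beyond 1 read, 1 gene of the whole table, not a member, was called and 1999 had an unadjusted p under 0.05, against 1166 in the main fit. Members at an unadjusted p under 0.05 numbered 1 in the main fit, 0 when scaled by library totals or by protein-coding totals, 2 with the replicate block and 0 to 5 when 1 library was left out. Limma-voom on the recovered reads called 0 genes and put 22 of 64 members above 0, against 32 in the main fit. With 1 library left out, 15 (without antibody library 3) to 49 (without antibody library 5) were above 0.

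Same-numbered libraries correlated at -0.0953, 0.0856, 0.347, 0.0183 and 0.167 in their deviations over genes, so the numbers were not taken as pairs. Of the 5 antibody libraries, 1 correlated best with the vehicle library of its own number. With the replicate block, 1252 genes had an unadjusted p under 0.05, and Hist1h2al joined Hist1h2bf among the members.

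Several differences near 0 changed sign, and the cause was not tested. When scaled by library totals and by protein-coding totals, Hist1h2ak was at 0.027 and 0.018, Hist1h2bb at 0.051 and 0.042, and Hist3h2a at 0.034 and 0.025. These scalings moved the median of all genes to 0.063 and 0.056. With limma-voom, Hist1h2bn was at -0.019, Hist1h3g at -0.0058, Hist2h2ac at -0.085 and Hist4h4 at -0.15. With 1 library left out, the range was -0.47 to 0.063 for Hist1h1b, -0.60 to 0.0033 for Hist1h2af, -0.31 to 0.11 for Hist1h2ak, -0.22 to 0.12 for Hist1h2bb and -0.051 to 0.28 for Hist1h2bn. For H3 genes it was -0.54 to 0.095 for Hist1h3b, -0.45 to 0.092 for Hist1h3d, -0.095 to 0.33 for Hist1h3f and -0.12 to 0.25 for Hist1h3g. It was -0.23 to 0.014 for Hist1h4h, -0.28 to 0.18 for Hist2h2ac, -0.40 to 0.17 for Hist2h2bb, -0.13 to 0.038 for Hist3h2a and -0.20 to 0.18 for Hist4h4. Depth limits the low members most, with 5 reads or fewer for Hist1h2bq in 5 libraries.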
